A study of Mus musculus with 9 samples.

Results

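The genes described here are 10 members of the pathway by which cytokines signal through Janus kinases (JAK) and signal transducers and activators of transcription (STAT): the kinase genes Jak1, Jak2 and Jak3, the factor genes Stat4, Stat5a and Stat5b, and the feedback genes Cish, Socs1, Socs2 and Socs3. They were taken by symbol from the array annotation, as 10 of 18193 genes and 22 of 45101 probe sets. All 10 genes passed the filter on low signal, as did 21 of the 22 probe sets, and the probe set left out belongs to Socs2. All 10 genes, and 18 of the 22 probe sets, lay above the background level of 1.37 log2, which is the 95th percentile of 31 genes restricted to other tissues. A further 2 probe sets carry Jak3 together with another symbol and were not used.

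The cells were cytotoxic T lymphocytes (CTL) from spleens of mice of the P14-TCR strain, labelled wild type, whose transgenic T cell receptor recognises the viral peptide gp33-41. Every culture was activated with that peptide and interleukins 2 and 12 for 48 h, then kept with both interleukins for 96 h more, and RNA was taken on day 6. During the last 48 h the cultures received KU-0063794 at 1 uM, an inhibitor of the mTOR kinase and so of both mTOR complexes, rapamycin at 20 nM, which acts mainly on mTOR complex 1, or the solvent DMSO. Each group has 3 Affymetrix arrays, 1 for each of the same 3 spleens, so array number and spleen are the same thing.

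Interleukin 2 binds a receptor whose chains hold JAK1 and JAK3, and these kinases phosphorylate mainly STAT5A and STAT5B. Interleukin 12 uses JAK2 and TYK2 and acts mainly through STAT4. Phosphorylated STATs enter the nucleus and switch on, among other genes, Cish and the Socs genes, whose SH2-domain proteins bind receptors or kinases and dampen the same signal, so that their transcripts serve as a gauge of pathway output in T cells.

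The promoters of the feedback genes are where STATs are known to act, and the windows shown are those of 3 SOCS genes induced by cytokines. RefSeq windows on GRCm38.p6, each the 250 bases before a transcript start, were at hand for 9 of the 10 members (12 windows), and Socs2 is named only. Capitals mark matches to TTCNNNGAA, a STAT motif that reads the same on both strands, or to an interferon-type motif, GAAA followed after any 2 bases by GAAA, searched on both strands and added after the windows had been seen. The Cish window, chr9:107296409-107296658 on the plus strand, has neither, and bases outside the windows were not searched. The Socs1 window, chr16:10785537-10785786 on the minus strand, has 2 overlapping matches to the interferon-type motif that start 83 and 77 bases before the transcript start. Only 30 bases of the Socs3 window, chr11:117969501-117969530 on the minus strand, are shown, around a TTCNNNGAA match that starts 154 bases before the transcript start. These bases lie inside the Socs3 gene span given below, which reaches 117970336, so that start is not the outermost one of the gene.
Cish: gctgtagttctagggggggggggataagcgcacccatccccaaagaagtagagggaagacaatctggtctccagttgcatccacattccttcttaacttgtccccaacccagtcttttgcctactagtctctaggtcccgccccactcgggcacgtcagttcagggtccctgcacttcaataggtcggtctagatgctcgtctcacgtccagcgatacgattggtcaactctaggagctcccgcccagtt
Socs1: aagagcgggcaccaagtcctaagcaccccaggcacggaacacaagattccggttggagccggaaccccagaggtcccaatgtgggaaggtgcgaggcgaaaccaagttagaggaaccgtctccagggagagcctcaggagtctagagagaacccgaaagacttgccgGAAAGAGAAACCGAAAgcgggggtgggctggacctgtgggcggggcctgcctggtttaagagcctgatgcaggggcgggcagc
Socs3: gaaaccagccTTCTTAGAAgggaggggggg
Of all 32851 windows in the same table, 7.02% hold TTCNNNGAA and 2.98% hold the interferon-type motif. Among the 9 members with a window, Socs3 alone has the first motif, and Socs1 and Stat4 have the second. The same STAT motif with 4 free bases in place of 3, searched on both strands, is in 5.85% of windows and in none of these members. A match is a description of letters and not evidence of binding.

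Array medians lay between 0.47 and 0.53 log2, and between 29.8% and 30.4% of probe sets exceeded the background level on each array. CD8 T cell markers were above background in 12 of 12 genes with a probe set. Among markers of other cells, 2 of 9 B cell genes (Ighm at 8.21 and Cd79b at 1.60 log2), 2 of 6 CD4 T cell genes, 1 of 13 myeloid, 2 of 5 NK and 1 of 7 erythroid or stromal genes were above it, while Cd4 itself was at 1.00 and Foxp3 at 0.06 log2. Of these markers Cd68, below background, fell with rapamycin with and without the spleen as a block in the fit. The CD4 list's Tnfrsf18 (7.26 log2) and the NK list's Fcer1g (3.33 log2) fell with both inhibitors with the block. Of the 12 CD8 T cell markers 0 passed without the block. With it Cd2 rose and Gzmb and Prf1 fell with both inhibitors, Cd8b1 and Cd5 rose with rapamycin, and Cd247 fell with KU-0063794. Of all genes 12.4% passed with the block for KU-0063794 and 11.8% for rapamycin. The part of these marker changes in the results was not tested. The actin control's 3' minus 5' signal was 0.65 to 0.70 log2 with KU-0063794, 0.62 to 0.72 with rapamycin and 0.49 to 0.65 with DMSO, higher than in DMSO in 3 of 3 spleens with each inhibitor. That of the Gapdh control was -0.22 to -0.03 log2 with KU-0063794, -0.25 to -0.03 with rapamycin and -0.21 to 0.04 with DMSO, lower than in DMSO in 3 of 3 spleens with each inhibitor. Their part in the differences below was not tested. In bulk RNA, fewer cells of a type and less RNA per cell cannot be told apart.

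Differences from DMSO in the pathway's own genes, each read by its brightest probe set, were small, with log2 fold changes of the 10 members between -0.42 and 0.40. Some dimmer probe sets differed by more, such as 1433804_at of Jak1 (-0.94 with KU-0063794) and 1446085_at of Socs2 (0.65 with rapamycin). Jak1 was lower on every array of both inhibitors than on any DMSO array, Stat4 was lower within each spleen, and Socs2 was higher within each spleen. Cish, a feedback gene often read as a gauge of STAT5 activity, differed between groups by less than between spleens. In limma's test without a spleen term, 0 of 10 members passed an adjusted p of 0.05 in any contrast, while 2 had an unadjusted p under 0.05 for KU-0063794 against DMSO, 3 for rapamycin against DMSO and 0 for KU-0063794 against rapamycin. Over all 13278 genes tested, 4.07% passed for KU-0063794 against DMSO, 4.44% for rapamycin against DMSO and 0% for KU-0063794 against rapamycin. Of these genes 2450, 2383 and 629 had an unadjusted p under 0.05, in the same order of contrasts. With the spleen as a block, which the shared spleens call for, 1 member passed for KU-0063794 (Jak1), 3 for rapamycin (Jak1, Stat4 and Socs2) and 0 for KU-0063794 against rapamycin, where 2 had an unadjusted p under 0.05. The shares over all genes were then 12.4%, 11.8% and 0%, so the count for KU-0063794 is near the share of all genes, and that for rapamycin rests on 3 genes. For KU-0063794 against rapamycin, 1329 of all 13278 genes had an unadjusted p under 0.05 with the block.

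**Figure D1:**
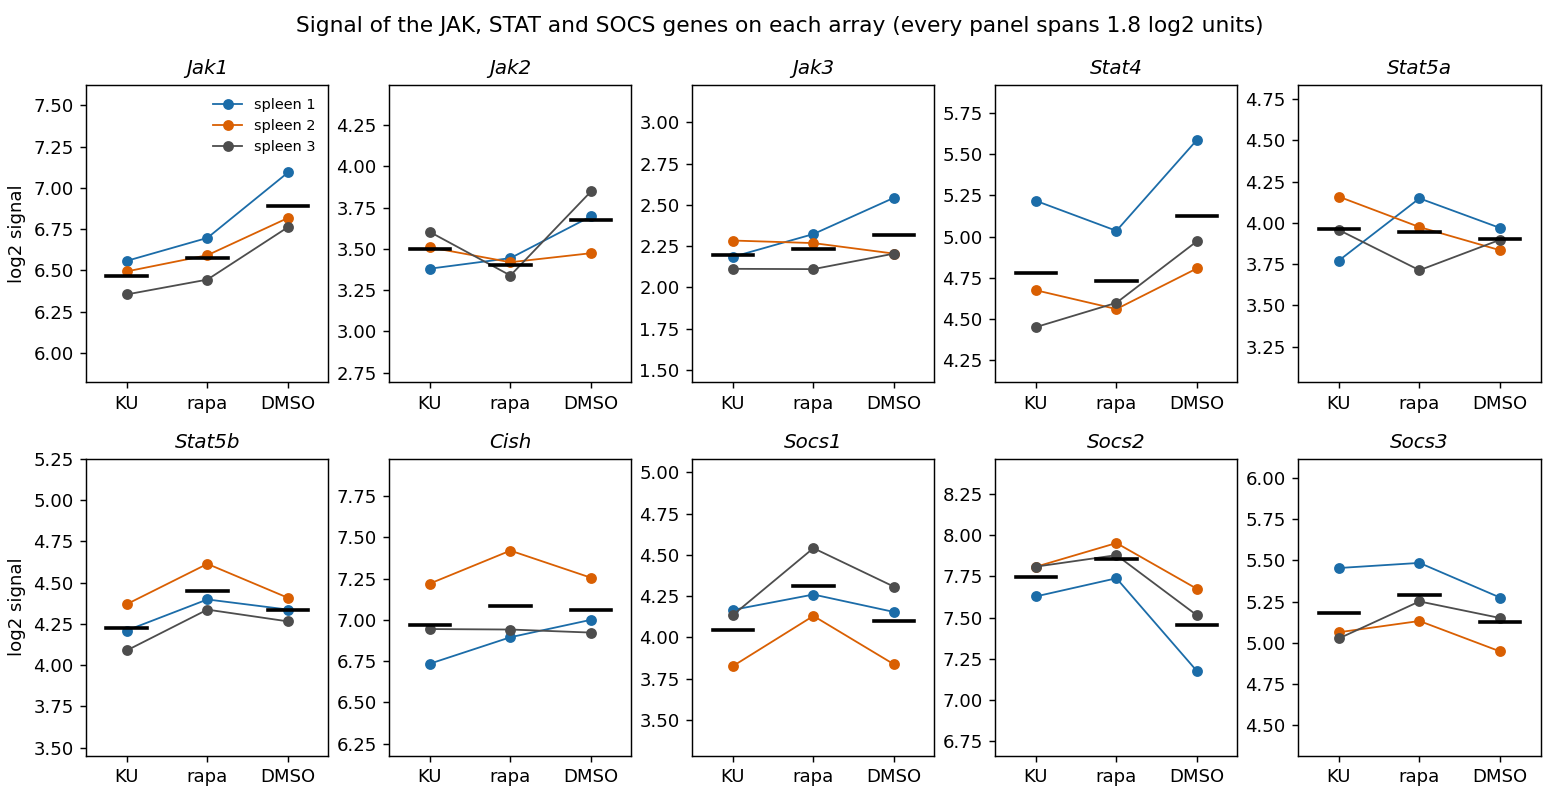
Log2 signal of each member gene (its brightest probe set) on the 9 arrays, with KU-0063794 (KU), rapamycin (rapa) and DMSO along the horizontal axis; lines join the 3 arrays of a spleen and black bars are group means. The 3 DMSO arrays of Jak1 lie above all inhibitor arrays, while spleen 1 of Stat4 and spleen 2 of Cish lie above the other spleens in each group.

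Jak1 (chr4:101151974-101265282; gene positions are those of RefSeq on GRCm38.p6), the kinase shared by the interleukin 2, interferon and many other receptors, had 6.56, 6.49 and 6.35 log2 in spleens 1, 2 and 3 with KU-0063794, 6.70, 6.59 and 6.44 log2 with rapamycin, and 7.09, 6.82 and 6.76 log2 with DMSO. The DMSO arrays did not overlap with either inhibitor, and the 2 inhibitors overlapped with each other. Its log2 fold change against DMSO was -0.42 with KU-0063794 (SE 0.11, 95% interval -0.67 to -0.17, limma adjusted p = 0.0739) and -0.31 with rapamycin (SE 0.11, -0.56 to -0.06, adjusted p = 0.17). With the spleen as a block Jak1 fell with both, at adjusted p = 0.00878 for KU-0063794 and 0.0266 for rapamycin. With the spleen as a random block, whose correlation limma estimates, the call was kept for KU-0063794 (adjusted p = 0.0175) and lost for rapamycin (adjusted p = 0.0551). The other 2 probe sets of Jak1 were also lower in 3 of 3 spleens with each inhibitor. One of them, 1433803_at, differed by -0.24 with KU-0063794 and -0.20 with rapamycin, and the dimmer 1433804_at by -0.94 with KU-0063794 and -0.79 with rapamycin. In limma's test over probe sets with the block, 1433803_at did not pass (adjusted p = 0.0798 with KU-0063794 and 0.143 with rapamycin). There 1433804_at passed (adjusted p = 0.0138 with KU-0063794 and 0.0272 with rapamycin), so the probe sets of Jak1 differ in their calls. With arrays or spleens left out in turn under the block, the Jak1 call was kept in 8 of 12 repeats for KU-0063794, lost without KU-0063794 array 1 (adjusted p = 0.0532) and without each spleen (up to 0.114). For rapamycin it was kept in 4 of 12, those without DMSO array 2 or any KU-0063794 array. It was lost without DMSO array 1 or 3, any rapamycin array (0.078 to 0.107) or any spleen (up to 0.177). Here and below, arrays of the inhibitor outside a comparison do not enter its log2 fold change. Repeats without them change only the estimated spread and the adjustment, so a call kept there is weak support. Leaving out arrays or a spleen also lowered the calls over all genes under the block. Without a spleen, 89 to 474 of all genes passed with KU-0063794, against 1644, and 6 to 411 with rapamycin, against 1561. With rapamycin 592 to 1102 passed without 1 DMSO or rapamycin array, and 1231 to 1335 without 1 KU-0063794 array. With KU-0063794 633 to 1226 passed without 1 DMSO or KU-0063794 array, and 1302 to 1393 without 1 rapamycin array. This bears on the losses of Stat4 and Socs2 below as well.

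Jak2 (chr19:29251803-29313095), which serves interleukin 12 and interferon gamma receptors, had 3.38, 3.51 and 3.60 log2 with KU-0063794, 3.44, 3.42 and 3.34 log2 with rapamycin, and 3.70, 3.47 and 3.85 log2 with DMSO. The rapamycin arrays lay just below the lowest DMSO array, and the KU-0063794 arrays overlapped both groups. The log2 fold change was -0.18 with KU-0063794 (95% interval -0.42 to 0.06, limma adjusted p = 0.436) and -0.27 with rapamycin (-0.51 to -0.03, adjusted p = 0.214, and 0.138 with the block), so it did not pass in either. The second probe set, 1421065_at, with a mean of 2.05 log2, was lower in 3 of 3 spleens with each inhibitor, by -0.36 with both. It passed with the block in the test over probe sets, at adjusted p = 0.0421 for KU-0063794 and 0.0423 for rapamycin, so the 2 probe sets of Jak2 differ in their calls.

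Jak3 (chr8:71676383-71690577), the partner of the common gamma chain in lymphocytes, had 2.18, 2.28 and 2.11 log2 with KU-0063794, 2.32, 2.27 and 2.11 log2 with rapamycin, and 2.54, 2.20 and 2.20 log2 with DMSO. The groups overlapped, and only DMSO array 1 stood above the others. Its log2 fold changes were -0.12 with KU-0063794 (95% interval -0.37 to 0.13) and -0.08 with rapamycin (-0.33 to 0.17). This is a dim probe set, the only one of Jak3 with a single symbol.

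Groups did not overlap in 1 of the 10 members for KU-0063794 against DMSO (Jak1) and in 3 of 10 for rapamycin against DMSO (Jak1, Jak2 and Socs2). Over all genes tested the shares were 20.2% for KU-0063794 and 19.1% for rapamycin. With 10 genes, counts of 1 and 3 are near those shares.

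**Figure D2:**
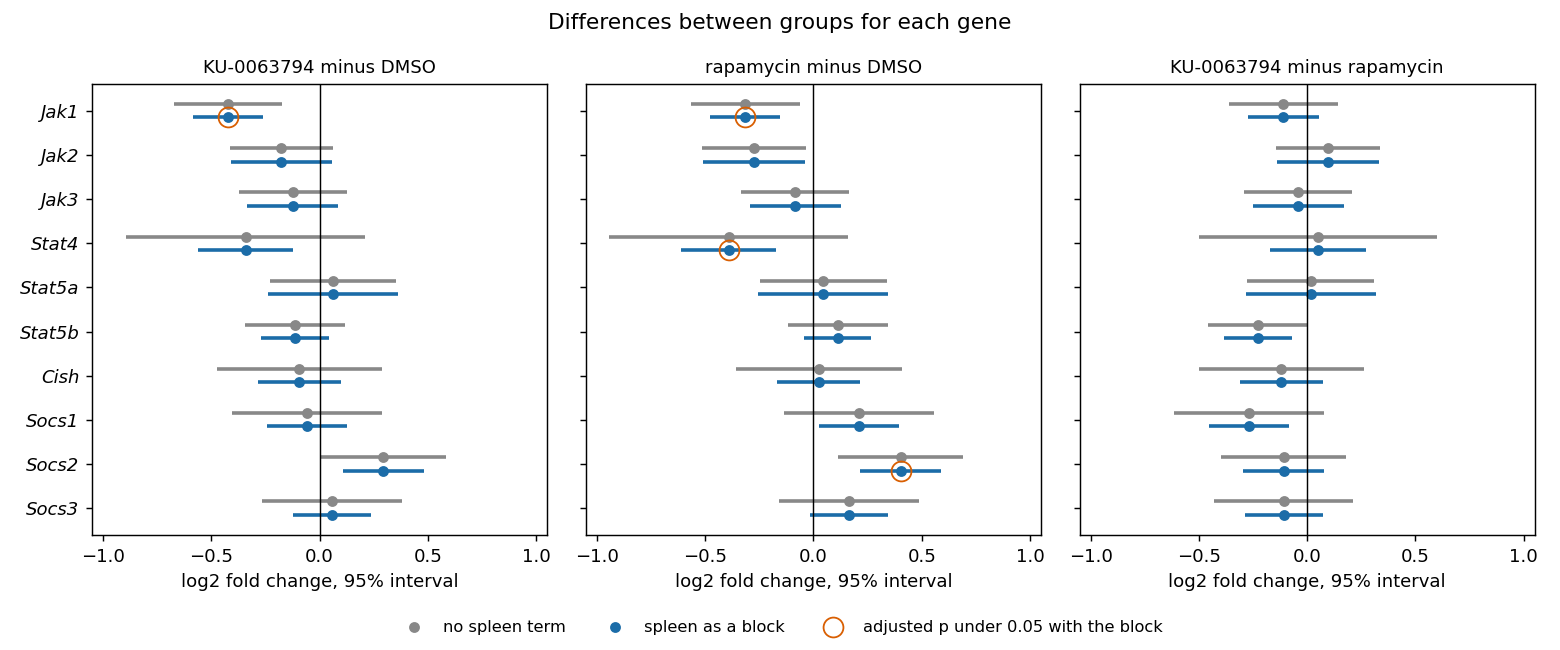
Log2 fold changes (horizontal axis) of the 10 members in the 3 contrasts, as points with 95% intervals, without a spleen term (grey) and with the spleen as a block (blue); rings mark an adjusted p under 0.05 with the block. Rings stand at Jak1 for KU-0063794 and at Jak1, Stat4 and Socs2 for rapamycin, and there is none for KU-0063794 against rapamycin.

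Stat4 (chr1:51987106-52107189), the factor that carries the interleukin 12 signal to Ifng, had 5.22, 4.68 and 4.45 log2 with KU-0063794, 5.04, 4.56 and 4.60 log2 with rapamycin, and 5.59, 4.81 and 4.97 log2 with DMSO. The groups overlapped and spleen 1 was the highest in each of them, and each inhibitor array was below the DMSO array of its own spleen. The within-spleen differences were -0.37, -0.13 and -0.52 with KU-0063794 and -0.55, -0.25 and -0.37 with rapamycin. The log2 fold change was -0.34 with KU-0063794 (SE 0.24, limma adjusted p = 0.524) and -0.39 with rapamycin (SE 0.24, adjusted p = 0.463). With the spleen as a block the SE was 0.10, and Stat4 fell with rapamycin (adjusted p = 0.037) but did not pass with KU-0063794 (adjusted p = 0.0565). With the spleen as a random block the rapamycin call was lost (adjusted p = 0.224). The rapamycin call was kept in 3 of 12 repeats with arrays or spleens left out, those without DMSO array 2 and KU-0063794 arrays 2 and 3. The KU-0063794 arrays do not enter this log2 fold change, which stayed at -0.39 without them. The call was lost without KU-0063794 array 1 (adjusted p = 0.0576), DMSO array 1 or 3, any rapamycin array or any spleen (up to 0.256). The KU-0063794 value passed without DMSO array 2, at a log2 fold change of -0.43.

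Stat5a and Stat5b lie side by side on chromosome 11, at chr11:100859351-100885169 and chr11:100780731-100859004, and encode close copies of the main factor of interleukin 2 signalling. Stat5a had 3.77, 4.16 and 3.96 log2 with KU-0063794, 4.15, 3.97 and 3.71 log2 with rapamycin, and 3.97, 3.83 and 3.90 log2 with DMSO. These groups overlapped widely, and the log2 fold changes were 0.06 with KU-0063794 (95% interval -0.23 to 0.35) and 0.05 with rapamycin (-0.25 to 0.34).

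Stat5b had 4.21, 4.37 and 4.09 log2 with KU-0063794, 4.40, 4.61 and 4.34 log2 with rapamycin, and 4.34, 4.41 and 4.27 log2 with DMSO. In every spleen rapamycin was highest, DMSO next and KU-0063794 lowest. The differences from DMSO were -0.11 with KU-0063794 (95% interval -0.35 to 0.12) and 0.11 with rapamycin (-0.12 to 0.35), and neither passed. KU-0063794 minus rapamycin was -0.23 (-0.46 to 0.01, limma unadjusted p = 0.0544, adjusted p = 0.933), and with the block the unadjusted p was 0.00999 and the adjusted p 0.364. The dim second probe set of Stat5b, at a mean of 1.43 log2, went the other way (0.07, higher with KU-0063794 in 3 of 3 spleens).

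Cish (chr9:107296659-107302784), an early target of STAT5 whose protein dampens interleukin 2 and T cell receptor signals, had 6.73, 7.22 and 6.94 log2 with KU-0063794, 6.89, 7.42 and 6.94 log2 with rapamycin, and 7.00, 7.25 and 6.92 log2 with DMSO. Spleen 2 was the highest in each group, and the groups overlapped almost fully. Its log2 fold change was -0.09 with KU-0063794 (SE 0.17, 95% interval -0.48 to 0.29, limma adjusted p = 0.837) and 0.03 with rapamycin (SE 0.17, -0.36 to 0.41, adjusted p = 0.963). The block narrowed the intervals to -0.28 to 0.10 for KU-0063794 and -0.17 to 0.22 for rapamycin. These intervals bound the size of a difference and do not show that there was none.

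Socs1 (chr16:10783808-10785536), which blocks JAK catalytic activity and is a main brake on interferon gamma and interleukin 2 signals, had 4.17, 3.82 and 4.13 log2 with KU-0063794, 4.26, 4.13 and 4.54 log2 with rapamycin, and 4.15, 3.84 and 4.31 log2 with DMSO. Spleen 2 was the lowest in each group. Within spleens, rapamycin was above DMSO in 3 of 3 and KU-0063794 in 1 of 3. The log2 fold change was -0.06 with KU-0063794 (95% interval -0.40 to 0.29, limma adjusted p = 0.899) and 0.21 with rapamycin (-0.13 to 0.56, adjusted p = 0.537, and 0.142 with the block). KU-0063794 minus rapamycin was -0.27 (-0.61 to 0.08), lower with KU-0063794 in 3 of 3 spleens, with an adjusted p of 0.933, and of 0.364 with the block.

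Socs2 (chr10:95383903-95417321), induced by STAT5 and known as the brake on growth hormone signalling, had 7.63, 7.81 and 7.81 log2 with KU-0063794, 7.74, 7.95 and 7.88 log2 with rapamycin, and 7.17, 7.67 and 7.51 log2 with DMSO. All rapamycin arrays lay above all DMSO arrays, and with KU-0063794 the array of spleen 1 lay within the DMSO range. The log2 fold change was 0.29 with KU-0063794 (SE 0.13, 95% interval 0.01 to 0.58, limma adjusted p = 0.262, and 0.0537 with the block). With rapamycin it was 0.40 (SE 0.13, 0.11 to 0.69, adjusted p = 0.127), and with the block Socs2 rose (adjusted p = 0.0186, and 0.0378 with the spleen as a random block). The call with the block was kept in 4 of 12 repeats, those without DMSO array 2 or any KU-0063794 array. The KU-0063794 arrays do not enter this log2 fold change, which stayed at 0.40 without them. The call was lost without DMSO array 1 (log2 fold change 0.32, adjusted p = 0.0723) or 3, any rapamycin array or any spleen (up to 0.147). The KU-0063794 value passed without DMSO array 2, at 0.37.

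Socs2 has 6 probe sets, and the 3 above background were higher in 3 of 3 spleens with each inhibitor. The bright 1418507_s_at differed by 0.32 with KU-0063794 and 0.45 with rapamycin. The dimmer 1446085_at had 2.12, 2.20 and 1.89 log2 with KU-0063794, 2.40, 2.45 and 2.91 log2 with rapamycin, and 1.91, 2.08 and 1.82 log2 with DMSO. Its rapamycin arrays stood above all others, and it rose by 0.65 with rapamycin (SE 0.15, limma adjusted p = 0.0487), while the difference with KU-0063794 was 0.13 (adjusted p = 0.739). KU-0063794 minus rapamycin was -0.52 for it (adjusted p = 0.977). This was the single member probe set past the test over probe sets without the block, where 2.7% passed for KU-0063794 and 3.04% for rapamycin over all probe sets, and the call was lost in each of the 12 repeats with arrays or spleens left out.

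Socs3 (chr11:117966079-117970336), which binds gp130-type receptors and the interleukin 12 receptor and restrains STAT3 and STAT4, had 5.45, 5.06 and 5.03 log2 with KU-0063794, 5.48, 5.13 and 5.25 log2 with rapamycin, and 5.27, 4.95 and 5.15 log2 with DMSO. Spleen 1 was the highest in each group, and the groups overlapped. The log2 fold change was 0.06 with KU-0063794 (95% interval -0.26 to 0.38, limma adjusted p = 0.89) and 0.17 with rapamycin (-0.16 to 0.49, adjusted p = 0.617, and 0.231 with the block). All 3 probe sets were higher with rapamycin in 3 of 3 spleens and none passed. The brightest and 1456212_x_at are of the type whose probes can match other transcripts. The third, 1416576_at, had 3.49, 3.15 and 3.01 log2 with KU-0063794, 3.64, 3.31 and 3.15 log2 with rapamycin, and 3.19, 2.53 and 3.12 log2 with DMSO. Its differences from DMSO were 0.27 with KU-0063794 and 0.42 with rapamycin.

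**Figure D3:**
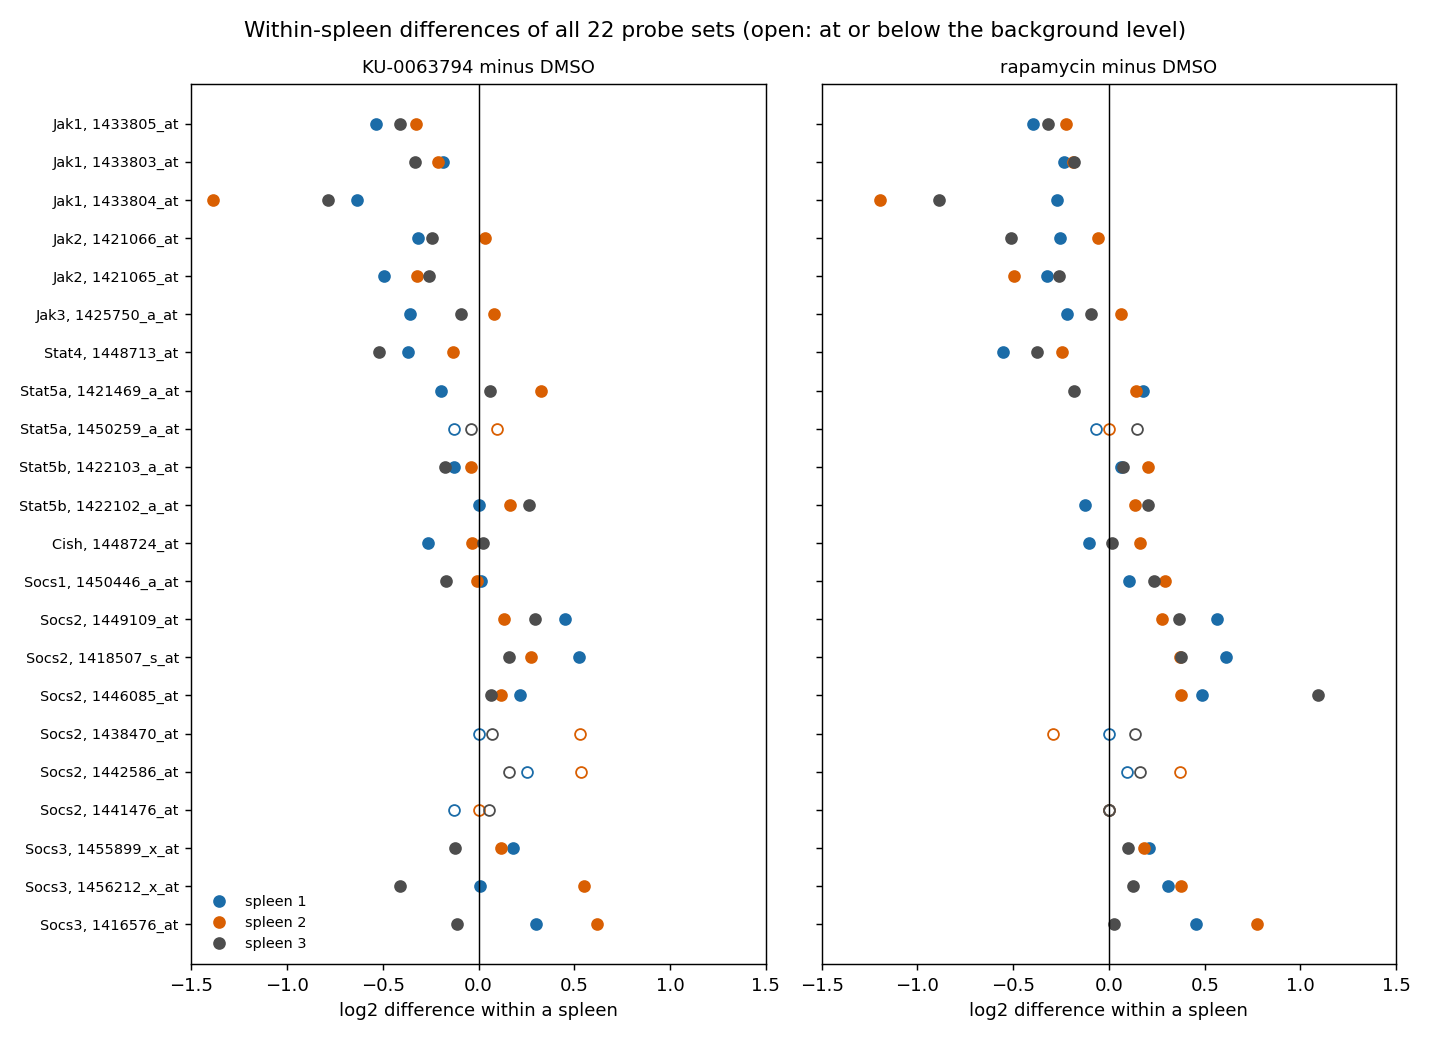
Log2 difference within each spleen (horizontal axis) for all 22 probe sets of the members, KU-0063794 minus DMSO on the left and rapamycin minus DMSO on the right, with 1 point per spleen; open circles are probe sets at or below the background level. All 3 Jak1 probe sets lie left of 0 in every spleen in both panels, and the 3 filled Socs2 probe sets lie right of it.

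No member passed for KU-0063794 against rapamycin, whose doses and targets differ. The log2 fold changes of KU-0063794 minus rapamycin lay between -0.27 (Socs1) and 0.10 (Jak2), with limma adjusted p of 0.933 to 0.998. Over all genes 0 passed, while 629 had an unadjusted p under 0.05. The 4 feedback genes were all lower with KU-0063794, by -0.12 for Cish, -0.27 for Socs1 and -0.11 each for Socs2 and Socs3, and each of these intervals includes 0 in the fit without the block. With the block the interval of Socs1 was -0.45 to -0.08, with an unadjusted p of 0.0103 and an adjusted p of 0.364, and those of Cish, Socs2 and Socs3 included 0.

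The spread between spleens was larger than that between groups for most members, with Jak1, Jak2 and Socs2 the exceptions. Spleen means of Stat4 were 5.28, 4.68 and 4.67 log2, a range of 0.61 against a range of 0.39 between group means. Cish had spleen means of 6.88, 7.30 and 6.94 log2, a range of 0.42 against 0.12 between groups. For Socs1 the ranges were 0.40 between spleens and 0.27 between groups. A test of the spleen term, added after these values were seen, passed for 3 of 10 members: Stat4 (limma adjusted p = 0.0141), Cish (0.0377) and Socs1 (0.0494), against 6.99% of all genes. Socs3 had an adjusted p of 0.0607. Spleen 1 had the highest Stat4 and Socs3, and spleen 2 the highest Cish and the lowest Socs1. Each spleen was 1 culture series, so an animal and its handling cannot be told apart.

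**Figure D4:**
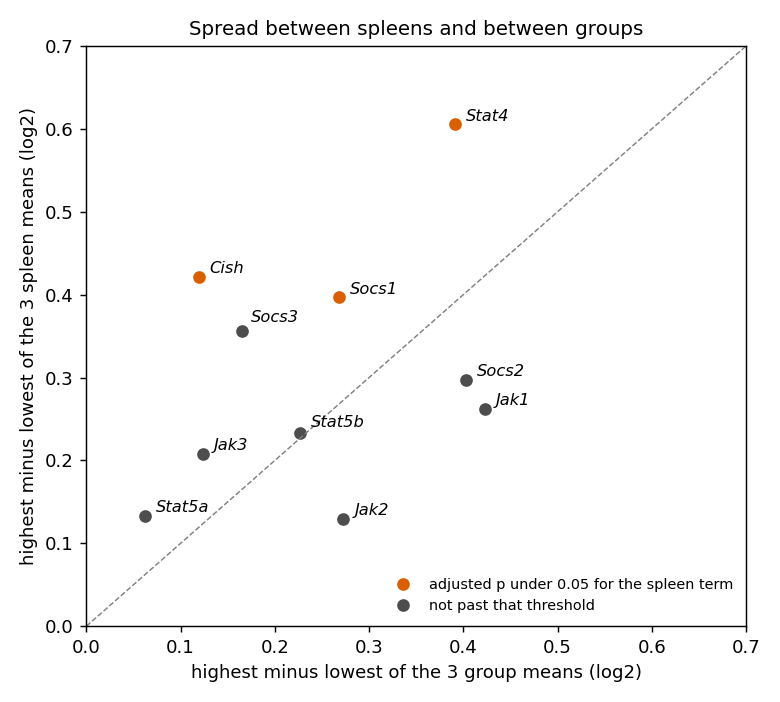
Range of the 3 spleen means (vertical axis, log2) against the range of the 3 group means (horizontal axis, log2) for each member; the dashed line marks equal ranges and orange points passed the test of the spleen term. Stat4, Cish and Socs1 are the orange points, and Jak1, Jak2 and Socs2 lie below the line.

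Genes around the members were read from 5 lists chosen with earlier results of these data known. In the other JAK, STAT and SOCS genes, 0 of 8 tested passed in limma for either inhibitor against DMSO. An unadjusted p under 0.05 was seen in 1 for KU-0063794 and 0 for rapamycin, and in 2450 and 2383 of all 13278 genes. With the block Stat3, which carries interleukin 6 and interleukin 10 signals, fell with both (-0.68 with KU-0063794, adjusted p = 0.0017, and -0.44 with rapamycin, adjusted p = 0.00694). It was the only gene of the 8 to pass, where 12.4% of all genes passed with KU-0063794 and 11.8% with rapamycin. The count is thus near the share of all genes. Stat3 had 5.08, 5.08 and 4.54 log2 with KU-0063794, 5.27, 5.34 and 4.80 log2 with rapamycin, and 5.82, 5.72 and 5.20 log2 with DMSO, lower in every spleen. The list's median log2 fold change was -0.06 with KU-0063794 and -0.03 with rapamycin, against medians over all genes of 0.011 with KU-0063794 and -0.0043 with rapamycin.

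Among 12 other brakes of the pathway, such as phosphatases and ubiquitin ligases, 0 passed for either inhibitor. An unadjusted p under 0.05 was seen in 3 with KU-0063794 and 1 with rapamycin, and in 2450 and 2383 of all 13278 genes. With the block 3 passed with KU-0063794 and 3 with rapamycin, where 12.4% of all genes passed with KU-0063794 and 11.8% with rapamycin, and 0 passed for KU-0063794 against rapamycin. Cbl, a ubiquitin ligase for receptors and kinases, rose by 0.31 with KU-0063794 and 0.32 with rapamycin, and Sla2, an adaptor that lowers T cell receptor signals, fell (-0.61 with KU-0063794 and -0.55 with rapamycin). The third was the phosphatase gene Ptpn6 for KU-0063794 (0.40) and Ptpn1 for rapamycin (0.32). The list medians were 0.03 with KU-0063794 and 0.17 with rapamycin.

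Of 17 tested receptor subunits that use JAKs, 1 passed with KU-0063794 (4.07% of all genes) and 0 with rapamycin (4.44% of all genes). With rapamycin 1 had an unadjusted p under 0.05, as did 2383 of all 13278 genes. Il12rb1, the interleukin 12 receptor chain that binds TYK2, had 4.71, 4.74 and 4.83 log2 with KU-0063794, 5.12, 4.86 and 5.03 log2 with rapamycin, and 5.77, 5.23 and 5.67 log2 with DMSO. All inhibitor arrays lay below all DMSO arrays, and Il12rb1 fell with KU-0063794 (-0.79, SE 0.14, limma adjusted p = 0.018), with -0.55 for rapamycin (adjusted p = 0.0571). The call with KU-0063794 was kept in 4 of 12 repeats, those without DMSO array 2 or any rapamycin array, and the rapamycin arrays do not enter this comparison. It was lost without DMSO array 1 or 3, any KU-0063794 array or any spleen (adjusted p up to 0.246). With the block 4 fell with KU-0063794, among them Il2rb (-0.44), the signalling chain for interleukins 2 and 15, and 2 with rapamycin, Il12rb1 and Il2rb (-0.40). The shares of all genes under the block were 12.4% with KU-0063794 and 11.8% with rapamycin, so the rapamycin count is at that share. The interleukin 2 receptor alpha gene Il2ra, itself a STAT5 target, was at 7.99 ± 0.11 log2 with KU-0063794, 7.97 ± 0.18 with rapamycin and 8.13 ± 0.14 with DMSO (SD, n = 3 each), named here after its values were seen, and it did not pass.

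Of 20 tested STAT5 targets, 4 fell and 0 rose with KU-0063794 (4.07% of all genes passed), and with rapamycin 3 fell and 1 rose (4.44% of all genes passed). Pim1, a kinase gene induced by interleukin 2, had 7.82, 8.06 and 7.75 log2 with KU-0063794, 7.94, 8.17 and 7.97 log2 with rapamycin, and 7.41, 7.68 and 7.25 log2 with DMSO. Both inhibitors lay above DMSO in each spleen, all rapamycin arrays lay above all DMSO arrays, and Pim1 rose with rapamycin (0.58, limma adjusted p = 0.0383), with 0.43 for KU-0063794 (adjusted p = 0.108, and 0.00921 with the block). Lta, the lymphotoxin alpha gene, had 7.20, 7.20 and 7.00 log2 with KU-0063794, 7.30, 7.56 and 7.38 log2 with rapamycin, and 8.15, 8.26 and 8.11 log2 with DMSO. No inhibitor array of Lta reached the DMSO arrays, and it fell with KU-0063794 (-1.04, adjusted p = 0.00304) and rapamycin (-0.76, adjusted p = 0.00695). The cyclin gene Ccnd2 (-0.72 with KU-0063794, adjusted p = 0.0127, and -0.47 with rapamycin, adjusted p = 0.0464) and the cell cycle inhibitor gene Cdkn1a (-0.87 with KU-0063794, adjusted p = 0.0149, and -0.77 with rapamycin, adjusted p = 0.0183) fell too. With arrays or spleens left out in turn, Lta kept its calls without any single array. Pim1 kept its call with rapamycin only without DMSO array 2 or KU-0063794 array 2 (adjusted p otherwise up to 0.292), and Ccnd2 only without KU-0063794 array 2 (otherwise up to 0.311). The call of Ccnd2 with KU-0063794 was lost without KU-0063794 array 1 or 3. Those of Cdkn1a were lost with KU-0063794 without DMSO array 1 or KU-0063794 array 1 or 2, and with rapamycin without DMSO array 1 or 3 or rapamycin array 1. Every call in this list was lost without any 1 spleen, where at most 3 of all genes passed. With the block 9 fell and 3 rose with KU-0063794, and 9 fell and 2 rose with rapamycin, where 12.4% of all genes passed with KU-0063794 and 11.8% with rapamycin. Those that rose were Pim1 and Myc with both inhibitors (Myc by 0.39 with KU-0063794 and 0.48 with rapamycin), and Bcl2 with KU-0063794 (0.32). Largest among the genes of this list that passed under the block were Prf1, the perforin gene (-1.74 with KU-0063794 and -1.49 with rapamycin), and Id2, a regulator of effector differentiation (-1.08 with KU-0063794 and -0.90 with rapamycin). The list median was -0.14 with KU-0063794 and -0.19 with rapamycin.

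STAT4 targets included Ifng, the main product of interleukin 12 signalling in CTL, with log2 fold changes of -2.63 with KU-0063794 and -2.62 with rapamycin (limma adjusted p = 0.0114 with KU-0063794 and 0.0105 with rapamycin). Of 13 tested, 2 fell with each inhibitor and 0 rose, where 4.07% of all genes passed with KU-0063794 and 4.44% with rapamycin. The other was Furin, a protease gene, with 5.61, 5.63 and 5.44 log2 with KU-0063794, 5.77 log2 in each spleen with rapamycin, and 6.35, 6.27 and 6.14 log2 with DMSO. The inhibitor arrays lay below DMSO throughout, and Furin fell by 0.70 with KU-0063794 (adjusted p = 0.00739) and by 0.48 with rapamycin (adjusted p = 0.0166). With the block 3 fell and 0 rose with KU-0063794 (12.4% of all genes passed), and 4 fell and 1 rose with rapamycin (11.8% of all genes passed). Gadd45g, a stress response gene, fell with both inhibitors (-0.80 with KU-0063794 and -0.65 with rapamycin). With rapamycin Hlx, a homeobox gene, fell (-0.49, adjusted p = 0.0245) and Irf1, a transcription factor gene induced by interferons, rose (0.44, adjusted p = 0.0299). Hlx lay near the background level of 1.37 log2, at 1.13, 1.62 and 0.91 log2 with rapamycin and 1.58, 1.92 and 1.63 log2 with DMSO. Groups overlapped for both genes, and without the block neither passed (limma adjusted p = 0.177 for Hlx and 0.11 for Irf1). Without any single array Ifng kept both calls and Furin kept that with KU-0063794, while Furin with rapamycin lost its call without DMSO array 1 or rapamycin array 1 or 3, and all were lost without any 1 spleen. The list median was -0.24 with KU-0063794 and -0.11 with rapamycin.

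These lists overlap with each other (Il2ra and Il12rb2 are in more than 1), and all contrasts against DMSO share the same 3 DMSO arrays.

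**Figure D5:**
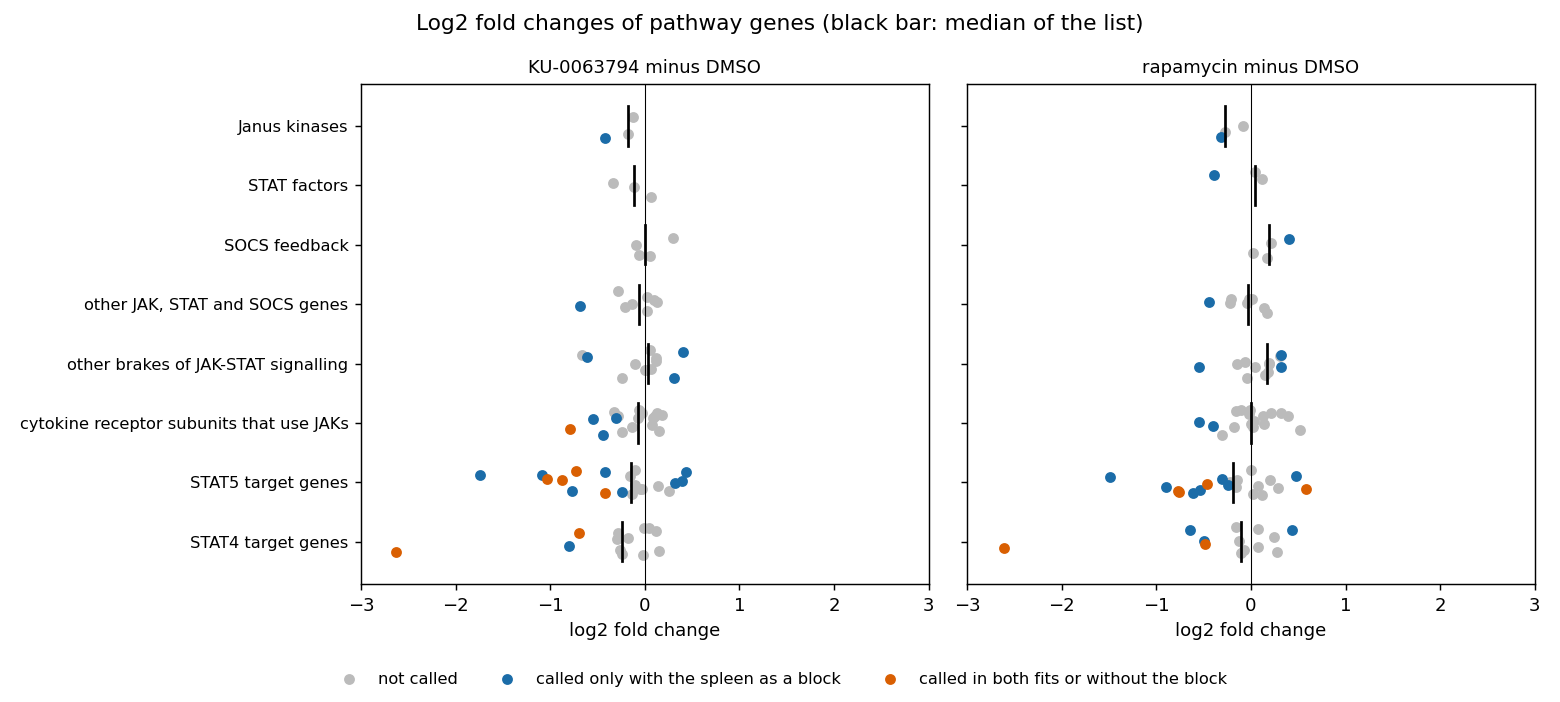
Log2 fold changes (horizontal axis) of the members by role and of 5 lists of pathway genes, KU-0063794 minus DMSO on the left and rapamycin minus DMSO on the right, with 1 point per gene and a black bar at the list median. Orange points passed without the spleen block and blue points only with it; the point furthest left among STAT4 targets is Ifng, at -2.63 with KU-0063794 and -2.62 with rapamycin.

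Profiles most like those of the feedback genes were taken from 8043 other genes above background, by the root mean square difference of the 9 log2 values after centring each gene on its mean, as a description without a test. Nearest to Cish were Mphosph6 (0.0618), Klf9 (0.0663) and Man2b1 (0.0825), against a root mean square of 0.203 for Cish about its own mean. Nearest to Socs1 were Tmem134 (0.0882), Cnp (0.0893) and Phf14 (0.0915), against its own 0.209. For Socs2 they were Adcy6 (0.0583), Zdhhc2 (0.0596) and Zdhhc3 (0.0651), against 0.220, and for Socs3 Atp11b (0.0615), Dock9 (0.0685) and Tor1aip2 (0.0690), against 0.174. None of the 12 is another member or on the lists above.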

How the data were processed

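Total RNA of 9 cultures was measured on 1 Affymetrix mouse array each. The authors deposited a log2 signal for each probe set and array, made with Affymetrix Expression Console 1.3.1 per the submitters' processing notes; how background was corrected, probes were summarised and arrays were normalized is not given in the sources used here. Signals were used without further normalization. Of 45101 probe sets, 64 were controls, 34945 had 1 gene symbol, and 932 with several symbols and 9160 not listed in the annotation were not analysed by gene. Each gene was its probe set with the highest mean signal, so levels of different genes are not on a common scale, and was tested if that mean exceeded the 40th percentile (0.31 log2). Group differences were fitted with limma 3.58.1 in R 4.3.3 over all 9 arrays, with two-sided moderated tests and Benjamini-Hochberg adjustment over 13278 genes (22947 probe sets) at 0.05. The number of arrays and the spread between spleens limit precision.

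The labels say that the groups came from the same spleens. Deviations from group means correlated positively across genes in all 9 pairs of arrays with 1 number (r 0.345 to 0.533) and negatively in the 18 other pairs (-0.414 to -0.0791), which centring on group means partly fixes. Given the shared spleens, values with the spleen as a block stand beside those without it. The procedure was tested on simulated data. The members and lists were chosen with earlier results of these data known, and 1 list is not reported here. Of each list, at most the 3 largest changes in each direction among genes past the test were to be named. Figures were drawn with matplotlib 3.10.9.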

Additional observations from a re-analysis of the deposited data

How the results depend on the processing

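Over 23 alternatives, 227 of 230 member values for KU-0063794 against DMSO, 226 of 230 for rapamycin against DMSO and 230 of 230 for KU-0063794 against rapamycin kept their side of the threshold. The 3, 4 and 0 others came to pass, and 11, 8 and 14 values, none of them called, had the other sign, in the same order of contrasts. Members past the test were 1 with KU-0063794 under the replicate block, the random replicate block, and trend with robust fitting, each against 0. With rapamycin they were 3 under the replicate block, 1 under the random block (Socs2) and 1 with every probe set tested, against 0. Under the replicate block the count with KU-0063794 was 2 after quantile normalization, 2 after median centring, 3 with the filter at the background level, and 0 to 3 with arrays or spleens left out, against 1; with rapamycin it was 0 to 3 with arrays or spleens left out, against 3. By probe set, where a member counts if any of its probe sets passed, the block gave 2 members with KU-0063794 and 4 with rapamycin. The share of all probe sets called under the block was not computed, so these 2 counts have no share beside them. Without the block, arrays or spleens left out gave 0 by probe set with rapamycin. For genes by their brightest probe set, the share of all genes called under the block was 12.4% with KU-0063794 and 11.8% with rapamycin. This share is not given for the random block or for trend with robust fitting. Nor is it given for quantile normalization, median centring or the filter at the background level. The member counts in those settings thus have no share beside them, and a higher count there is not read as a result about the members. Counts in the lists under the replicate block were, for KU-0063794 and rapamycin, 1 and 1 (other JAK, STAT and SOCS genes), 3 and 3 (brakes), 4 and 2 (receptors), 12 and 11 (STAT5 targets), and 3 and 5 (STAT4 targets). With arrays or spleens left out, and no block, those of receptors were 0 to 2 and 0 to 1, of STAT5 targets 0 to 5 and 0 to 4, and of STAT4 targets 0 to 3 and 0 to 3. Leaving out a spleen takes 3 arrays, and then 0 to 3 of all genes passed without the block, so the loss of a call there says nothing of the gene. With the block, 89, 474 and 123 of all genes passed with KU-0063794 without spleens 1, 2 and 3, against 1644 with all arrays. With rapamycin they were 6, 411 and 18, against 1561. Without the block and with 1 array left out, 123 to 548 of all genes passed with KU-0063794, against 540. With rapamycin 183 to 514 then passed, against 590. No result reversed. For genes by their brightest probe set, the block changed no call of a member beyond those of Jak1, Stat4 and Socs2. By probe set it also brought 1421065_at of Jak2 and 1433804_at of Jak1 past the test with both inhibitors, and 1418507_s_at of Socs2 with rapamycin. The cause of the changed calls was not tested.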
